A study of Homo sapiens with 44 samples.

Results

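The collagen genes of the colon fibroblast line Ccd-18Co were followed across 10 cytokines. Members were all row symbols of the count table made of COL, digits, A and digits with nothing more, which gave 44 of 40663 symbols and used no measured value. Of these, 20 had enough counts to be tested, 7 had no count in any library, and 19 had at most 3 counts in every library, a total that includes those 7. The members without a count were COL2A1, COL4A6, COL6A5, COL11A2, COL22A1, COL23A1 and COL26A1. The other 5 untested members, COL4A5, COL6A6, COL8A2, COL9A2 and COL15A1, reached more than 3 counts in 1 to 4 libraries, and COL15A1 had the most with 12 counts in 1 library.

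Collagens are secreted proteins in which 3 chains wind into a triple helix, and most chains are named for the collagen type and the chain number. Fibrillar collagens such as types I, III and V form the tension-bearing fibres of connective tissue, type IV forms the sheet of basement membranes, type VI forms beaded filaments around cells, and type VII forms the fibrils that anchor epithelial basement membrane to the stroma. In the gut wall, fibroblasts make most interstitial collagen, and collagen accumulates in the fibrotic strictures of Crohn's disease.

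Ccd-18Co is a fibroblast line from normal human colon, used here up to passage 20, so that all groups come from 1 line. Each of 11 groups had 4 replicate libraries. The groups were unstimulated cells and cells given IL-1β (IL1B in the sample labels) at 0.1 ng/ml, or IL-6, IL-13 (IL13), IL-17A (IL17A), IL-22 (IL22), IFNα (IFNA), IFNγ (IFNG), TGF-β1 (TGFB1), TNF or OSM at 10 ng/ml. All groups were starved of serum for 72 h, then kept for 24 h in serum-free medium with or without cytokine. A legend of the study gives a lower dose of IL-1β than the labels and methods do, and no source gives a separate dose for IL-13 apart from the rule for all cytokines in the labels. The labels do not say whether replicates were separate cultures, so p-values measure the spread between these libraries, which may be technical.

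Libraries held 742141 to 2213347 counts, with a median of 1480842. In a library 3 counts, the limit set by a count of 0, corresponded to 1.39 to 3.85 CPM (counts scaled to the normalised library size), for counting error alone. Of 8 fibroblast markers all had counts in every library, with DCN, LUM and PDGFRA at 230.1 CPM or more. PDGFRB was the lowest, with a median of 7.53 CPM and a minimum of 1.33 CPM, under the limit of 3 counts. The minimum was 6.58 CPM for S100A4, 11.9 CPM for FAP and 16.9 CPM for THY1. EPCAM, CDH1, KRT20 and CLDN7 (epithelial), PTPRC and CD3E (leukocyte) and the glial and endothelial markers did not exceed 4 counts in any library. VIL1 reached 26.6 CPM, CD68 reached 73.8 CPM after IFNα and ACTG2, a smooth muscle actin, ranged from 216 to 1093 CPM. The other smooth muscle markers were low, with DES at no more than 4 counts in any library. MYH11 had a median of 1.37 CPM and a maximum of 14.7 CPM. Some markers moved with the cytokines. After IL-1β, THY1 (log2 fold change −1.81), ACTG2 (−1.12) and VIM (−0.83) fell and S100A4 rose (1.22), and after TNF, THY1 (−1.78), VIM (−0.68) and PDGFRA (−0.65) fell and S100A4 rose (1.08). THY1 fell after IL-17A (−1.55) and TGF-β1 (−1.16), LUM after TGF-β1 (−0.58), FAP after IFNα (−1.31) and PDGFRA after IL-13 (−0.76), while VIM rose after IL-13 (0.84), DCN after OSM (0.56) and CD68 after IFNα (4.23) and IFNγ (2.15). The summed level of the 8 fibroblast markers was 20045 to 22884 CPM in unstimulated libraries, 18897 to 23545 after IL-1β and 18067 to 21499 after TNF. It was 14372 to 18507 after IFNγ, 15107 to 17996 after TGF-β1 and 24832 to 31982 after OSM. This sum was mostly DCN and LUM, which averaged 15675 and 3767 CPM in unstimulated cells, so it says little about the lower markers. The part of these markers in the results was not tested. In bulk RNA, fewer cells that make a collagen and less of its RNA per cell cannot be told apart.

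Regulatory windows at 3 loci are shown because the genes beside them rose with a cytokine or were called for other cytokines than a close neighbour. They come from RefSeq on GRCh38.p14, run 5′ to 3′ along the strand of the gene (for the type IV interval, along the plus strand), and capitals mark matches on either strand to the CCAAT box (CCAAT), the GC box (GGGCGG), the SMAD box (CAGAC), the interferon-activated GAS element (TTCNNNGAA) and the NF-kB site.
COL7A1, 250 bases before the start, minus strand, chr3:48595330-48595579: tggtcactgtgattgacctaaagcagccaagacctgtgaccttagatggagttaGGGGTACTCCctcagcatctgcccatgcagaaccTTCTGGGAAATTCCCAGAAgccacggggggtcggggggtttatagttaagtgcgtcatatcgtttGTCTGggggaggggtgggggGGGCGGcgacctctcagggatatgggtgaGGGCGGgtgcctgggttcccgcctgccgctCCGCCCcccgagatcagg
COL6A2, 250 bases before the start, plus strand, chr21:46097862-46098111: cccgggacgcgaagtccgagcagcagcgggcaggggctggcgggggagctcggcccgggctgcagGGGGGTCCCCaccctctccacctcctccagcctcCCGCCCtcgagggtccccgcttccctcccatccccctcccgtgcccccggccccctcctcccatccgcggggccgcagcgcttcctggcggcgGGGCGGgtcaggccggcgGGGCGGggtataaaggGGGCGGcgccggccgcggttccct
COL4A1 and COL4A2, the 126 bases between the starts, chr13:110307158-110307283: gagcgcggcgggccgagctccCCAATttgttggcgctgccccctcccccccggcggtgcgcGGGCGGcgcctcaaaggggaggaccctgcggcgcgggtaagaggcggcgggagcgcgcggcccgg
The COL7A1 window, upstream of a gene that rose after IL-1β and TNF, held 3 GC boxes, 1 SMAD box, 2 GAS matches and 3 NF-kB matches. Of the NF-kB matches, 2 fell on the same stretch, 1 for each strand, and overlapped each other and the GAS matches. The window held no AP-1 site (TGANTCA). The COL6A2 window, upstream of a gene that rose after IL-13, held 4 GC boxes and 1 NF-kB match and no match to the STAT6 element. COL4A1 and COL4A2 are transcribed away from each other across an interval that held 1 CCAAT box and 1 GC box. Of 35116 RefSeq windows of 250 bases, 42.6% held a GC box, 38.0% a SMAD box, 32.0% a CCAAT box, 6.57% a GAS match, 6.57% an AP-1 site, 5.38% a STAT6 match and 5.21% an NF-kB match. Such matches describe letters in these windows and were not tested as binding sites.

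Collagen transcripts made up 1.29% to 2.03% of the counts of unstimulated libraries (median 1.76%). Pooled over all 44 libraries, COL1A1 alone held 63.8% of collagen counts, ahead of COL3A1 (13.8%) and COL1A2 (11.5%). After TNF the collagen share was 0.466% to 0.883% and after IL-1β 0.591% to 0.946%, below the range of unstimulated cells in all libraries of both groups. After IL-13 it was 1.93% to 2.78%, which overlapped that range. The share after IFNγ spread widely, from 0.471% to 1.47%. These shares were not tested. The other groups had medians of 1.61% (IL-6), 1.53% (IL-17A), 1.82% (IL-22), 1.11% (IFNα), 1.24% (TGF-β1) and 1.32% (OSM).

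**Figure D1:**
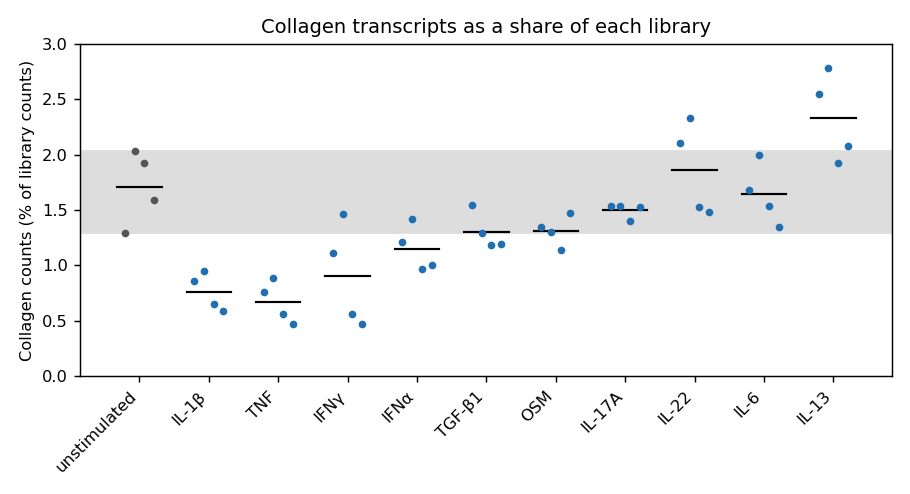
Share of all estimated counts that fell on the 44 collagen genes, in percent, in each of 44 libraries (points) by group; black lines are group means and the grey band is the range of the unstimulated libraries. The TNF and IL-1β libraries lie below the band, at 0.466% to 0.946%, and the highest library is 1 of IL-13 at 2.78%.

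Per kilobase of transcript, the unstimulated level was highest for COL1A1 at 1799 ± 656 CPM per kb (SD, n = 4), followed by COL3A1 at 472 ± 79.4 and COL1A2 at 415 ± 57.3, whose ranges overlapped. The next tier held COL5A2 (64.1 ± 7.77 CPM per kb) and COL6A3 (41.6 ± 5.02), then COL4A1 (31.7 ± 7.20) and COL14A1 (30.9 ± 5.05), and these last 2 did not differ beyond their spread. COL6A1, COL6A2, COL8A1, COL12A1 and COL4A2 lay between 5.90 and 11.0 CPM per kb on average. COL7A1 was near the low end at 1.01 ± 0.284 CPM per kb. The lowest tested member was COL24A1 at 0.602 ± 0.225 CPM per kb.

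Across the 10 comparisons, which share the 4 unstimulated libraries, falls outnumbered rises among collagen genes. Each comparison came from edgeR's quasi-likelihood test over 9513 genes, with a call at a Benjamini-Hochberg adjusted p under 0.05. TNF raised 2 and lowered 9 of the 20 tested members, against 11.5% of all genes called (5.37% higher and 6.09% lower). IL-1β raised 2 and lowered 6, against 7.38% of all genes (3.46% and 3.92%). IFNγ raised 1 and lowered 4, against 10.6% (5.52% and 5.13%), and TGF-β1 raised 1 and lowered 3, against 5.69% (2.61% and 3.08%). IFNα raised 0 and lowered 3, against 9.85% (4.99% and 4.86%). IL-13 raised 2 and lowered 0, against 3.93% (1.53% and 2.4%), and IL-17A raised 1 and lowered 1, against 1.52% (0.599% and 0.925%). OSM raised 0 and lowered 1, which was 5% of the members, near the 3.96% of all genes called (1.42% and 2.54%). IL-6 and IL-22 changed 0 members by edgeR's test and 0 by DESeq2. Of all genes, edgeR called 0.0105% for IL-6 and 0% for IL-22, and DESeq2's Wald test called 1 and 112 genes. At an unadjusted p under 0.05 in edgeR, IL-6 had 0 members and 233 genes. IL-22 had 2 members, COL7A1 and COL8A1, and 1037 genes. The median log2 fold change of the members was −0.51 for IL-1β and −0.43 for TNF, against −0.01 and −0.02 over all genes tested, and 0.28 for IL-13, against −0.05. In the test for any difference among the 11 groups, 14 of 20 members were called, against 35.7% of all genes. With the further threshold of the study's methods, an absolute log2 fold change above 1.5, the calls left were 5 for TNF (4.19% of all genes), 3 for IL-1β (2.78%), 1 for IL-13 (1.47%), 1 for TGF-β1 (1.7%) and 0 for IFNα (3.98%), IFNγ (3.53%), IL-17A (0.452%) and OSM (1.3%).

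**Figure D2:**
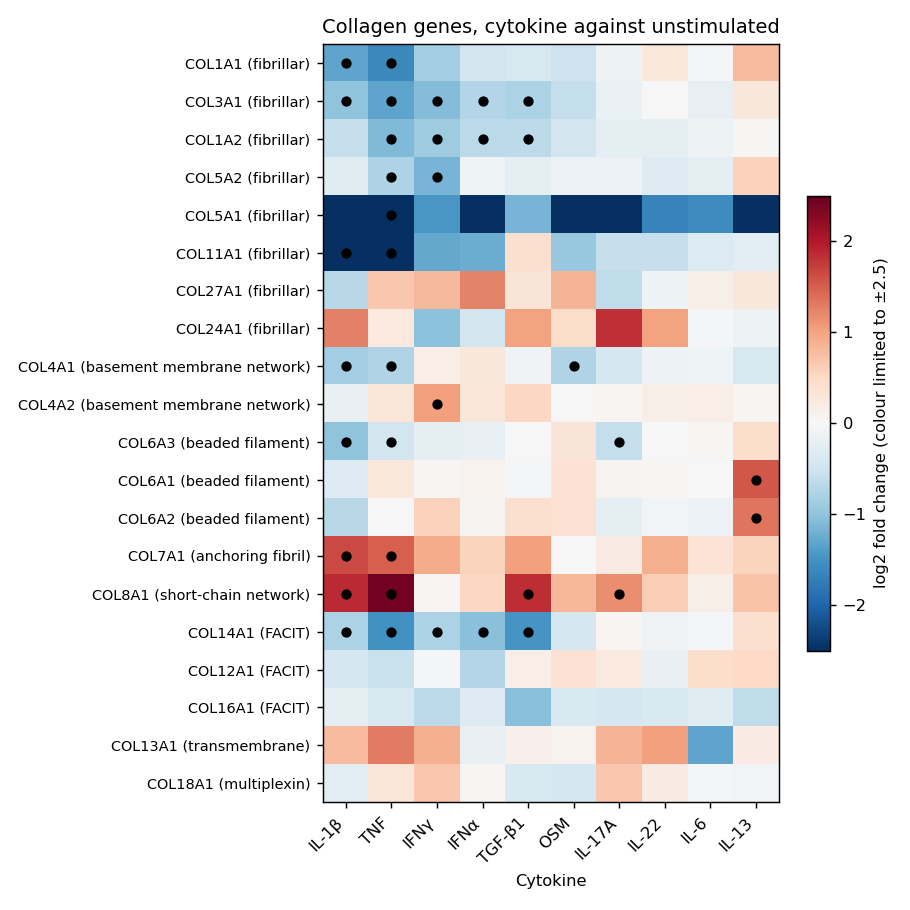
Log2 fold change of the 20 tested collagen genes (rows, with their class) after each of 10 cytokines (columns) against unstimulated cells, blue lower and red higher, with colour limited to ±2.5; black dots mark an adjusted p under 0.05 (edgeR). COL3A1 and COL14A1 were called lower for 5 cytokines each and COL8A1 higher for 4.

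COL1A1 (chr17:50184101-50201632, minus strand, hg38) encodes the α1 chain, of which type I collagen, the main fibre of the gut wall, holds 2 copies. In unstimulated cells it stood at 5404, 13339, 13811 and 10008 CPM in the 4 libraries, a wide spread in which 1 library stood well below the other 3. After TNF the libraries stood at 4122, 5734, 2321 and 1814 CPM and after IL-1β at 5097, 5472, 3319 and 3142 CPM. All libraries of both cytokines were below 3 of the 4 unstimulated ones, while the lowest unstimulated library lay within their range. COL1A1 fell after TNF (log2 fold change −1.61 ± 0.36, with its SE, adjusted p = 0.00165) and after IL-1β (log2 fold change −1.32 ± 0.36, adjusted p = 0.0135). Without unstimulated replicate 2 or 3 or IL-1β replicate 3 or 4, COL1A1 no longer passed the threshold for IL-1β (log2 fold change −1.22 to −1.16, adjusted p from 0.0525 to 0.0671). The call for TNF held without any single library, at −1.93 to −1.37.

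The other cytokines left COL1A1 short of a call, with adjusted p of 0.123 or more. IL-13 gave the highest libraries, at 20587, 24451, 13214 and 15129 CPM, and its log2 fold change of 0.79 had an adjusted p of 0.258. IFNγ gave a split group, with 6909, 12379, 2520.2 and 1628 CPM, in which 1 library was near the top of the unstimulated range and 2 were below it. In the remaining groups the levels were 15066, 17891, 8725 and 9518 CPM after IL-22, 9869, 13148, 10088 and 7876 CPM after IL-6 and 10163, 10277, 8333 and 10369.9 CPM after IL-17A. The libraries held 9615, 6744, 7501 and 8473 CPM after TGF-β1, 7416, 9808, 6239.5 and 7442 CPM after IFNα and 7797, 7457, 6257 and 8137 CPM after OSM, and all of these overlapped the unstimulated range.

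COL1A2 (chr7:94394895-94431227, plus strand) encodes the α2 chain, the partner of COL1A1 in type I collagen. Unstimulated libraries held 1796, 2463, 2202 and 1965 CPM, a tighter group than for COL1A1. The level fell with TNF to 1077, 1212, 859 and 798 CPM and with IFNγ to 1265, 1721, 848 and 716 CPM. Neither group overlapped the unstimulated libraries. COL1A2 fell after TNF (log2 fold change −1.09 ± 0.20, adjusted p = 0.000121) and after IFNγ (log2 fold change −0.89 ± 0.20, adjusted p = 0.00196). The IFNγ call was lost when only the 8 libraries compared were fitted (adjusted p = 0.0827).

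IFNα and TGF-β1 also lowered COL1A2 without overlap. IFNα libraries held 1399, 1636, 1165 and 1065 CPM and TGF-β1 libraries 1438, 1491, 1126 and 1297 CPM. The gene fell after IFNα (log2 fold change −0.68 ± 0.20, adjusted p = 0.0209) and after TGF-β1 (log2 fold change −0.65 ± 0.20, adjusted p = 0.0421). For IFNα, COL1A2 missed the threshold without unstimulated replicate 2 or 3 or IFNα replicate 3 or 4 (log2 fold change −0.63 to −0.56, adjusted p from 0.0624 to 0.114). The COL1A2 call for TGF-β1 was lost without unstimulated replicate 2, 3 or 4 or TGF-β1 replicate 1, 2, 3 or 4 (log2 fold change −0.70 to −0.55, adjusted p from 0.0589 to 0.172). With DESeq2's size factors (adjusted p = 0.0560) or only the 8 libraries compared (0.107) the TGF-β1 call was also lost.

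The remaining cytokines did not reach a call for COL1A2. IL-1β libraries held 1526, 1776, 1176 and 1137 CPM, all below the unstimulated ones, with a log2 fold change of −0.59 and an adjusted p of 0.0686. The levels were 2412, 2832, 1569.7 and 1833 CPM after IL-13 and 1948, 1979, 1648 and 1659.7 CPM after IL-22. They were 1984, 2318, 1755 and 1611 CPM after IL-6, 1749, 1816, 1728 and 1873 CPM after IL-17A and 1361, 1443, 1368 and 1969 CPM after OSM. All of these overlapped the unstimulated range.

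The relative level of the type I chains was compared within each library. The ratio of COL1A1 to COL1A2 counts was 3.01 to 6.27 in unstimulated libraries and 8.25 to 8.63 after IL-13, with no overlap, while the log2 fold change of COL1A2 itself was 0.04. The exact permutation test over the 70 divisions of 8 libraries gave p = 0.0286, the lowest value that 4 against 4 libraries can give, and 0.190 when adjusted by the Benjamini-Hochberg method over the 60 ratio tests made here (6 ratios in 10 cytokines). After IL-1β the ratio was 2.76 to 3.34 and after TNF 2.27 to 4.73, both of which overlapped the unstimulated libraries. COL1A1 was read relative to COL1A2 within a library, so that this ratio does not depend on scaling between libraries. Set against COL3A1 instead, COL1A1 had a ratio of 2.64 to 5.02 in unstimulated libraries, and all 10 cytokines overlapped that range.

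COL3A1 encodes the single chain of type III collagen, the fibre that accompanies type I in distensible tissue, and lies beside COL5A2 on chromosome 2 (chr2:188974373-189012746 and chr2:189031898-189225312, on opposite strands). COL3A1 was called lower for 5 of 10 cytokines and higher for none. Unstimulated libraries held 2050.2, 2656, 3113 and 2553 CPM. TNF libraries held 1121, 1315, 861 and 839 CPM, all below the lowest unstimulated library. COL3A1 fell after TNF (log2 fold change −1.33 ± 0.19, adjusted p = 1.31e-06).

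IFNγ and IL-1β also lowered COL3A1. IFNγ libraries held 1457, 1788, 961 and 714 CPM and IL-1β libraries 1265, 1734, 1199 and 943 CPM, all below the unstimulated ones. COL3A1 fell after IFNγ (log2 fold change −1.08 ± 0.19, adjusted p = 4.91e-05) and after IL-1β (log2 fold change −1.01 ± 0.19, adjusted p = 0.000148). TGF-β1 libraries held 1642, 1456, 1423 and 1456 CPM and IFNα libraries 1532, 1745, 1557 and 1439.7 CPM, again below every unstimulated library. COL3A1 fell after TGF-β1 (log2 fold change −0.80 ± 0.19, adjusted p = 0.0055) and after IFNα (log2 fold change −0.73 ± 0.19, adjusted p = 0.00603). All 5 calls held without any single library.

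IL-13 gave the highest COL3A1 level, at 2829.9, 3478, 3031 and 3365 CPM, a log2 fold change of 0.29 with an adjusted p of 0.496. OSM libraries held 1541, 1571, 1608 and 2175 CPM, with a log2 fold change of −0.59 and an adjusted p of 0.0637. IL-6, IL-17A and IL-22 overlapped the unstimulated range throughout. Their libraries held 2000.3, 2327, 2422 and 2245 CPM, 2345, 2399.9, 2175 and 2283 CPM and 2467, 2969, 2507 and 2323 CPM in that order.

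COL5A2, a chain of the type V collagen that regulates fibril width, was called lower for 2 of the 5 cytokines that lowered its neighbour. Unstimulated libraries held 363, 448, 489 and 452 CPM. IFNγ libraries held 232, 278, 148 and 124 CPM and TNF libraries 267, 306, 226 and 225 CPM, without overlap. COL5A2 fell after IFNγ (log2 fold change −1.16 ± 0.20, adjusted p = 3.95e-05) and after TNF (log2 fold change −0.78 ± 0.20, adjusted p = 0.00564), and neither call was lost without a single library. IFNα libraries held 455, 427, 385 and 358 CPM, of which 1 lay just below the unstimulated range. IL-22 libraries held 360, 347, 354 and 342 CPM, all below that range. IL-13 libraries held 622, 680.2, 595 and 712 CPM, all above it, with a log2 fold change of 0.58 and an adjusted p of 0.0916. For the cytokines other than IFNγ, TNF and IL-13 the adjusted p was 0.484 or more.

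The ratio of COL5A2 to COL3A1 counts was among the tightest measures within groups. It was 0.157 to 0.177 in unstimulated libraries, and 7 of 10 cytokines lay outside that range in all 4 libraries. It was higher after IL-1β (0.224 to 0.294), IFNα (0.245 to 0.297), TNF (0.232 to 0.268), TGF-β1 (0.207 to 0.357), OSM (0.205 to 0.245) and IL-13 (0.196 to 0.220), and lower after IL-22 (0.117 to 0.147). After IFNγ it was 0.154 to 0.173, overlapping the unstimulated range while both genes were lower, as did the ratios after IL-6 and IL-17A. Each of these 7 comparisons had p = 0.0286 in the exact permutation test and 0.190 after adjustment over the 60 ratio tests, a design in which no smaller raw p can be had.

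**Figure D3:**
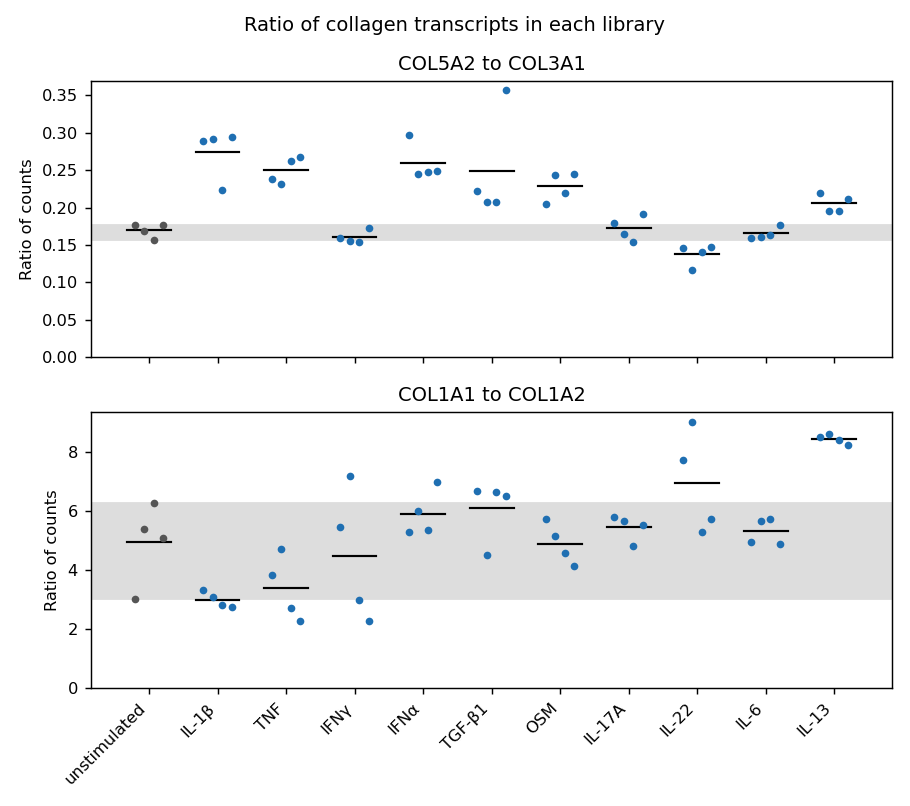
Ratio of estimated counts of COL5A2 to COL3A1 (top) and of COL1A1 to COL1A2 (bottom) in each library (points) by group; black lines are group means and grey bands the range of unstimulated libraries. The 4 IFNα libraries lie at 0.245 to 0.297 and the 4 IFNγ libraries at 0.154 to 0.173 in the top panel, and the IL-13 libraries at 8.25 to 8.63 in the bottom panel.

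COL11A1 encodes a chain of the minor fibrillar type XI collagen, best known in cartilage. It was a low member, with 5.39, 10.2, 0.704 and 10.9 CPM in unstimulated libraries, from 1 to 16 counts each. After IL-1β all 4 libraries had 0 counts, and the level was at least 3.70-fold lower than in unstimulated cells when set against 3 counts per library (edgeR adjusted p = 0.00354). After TNF 1 count was seen in 4 libraries against 42 in unstimulated cells, a ratio of 38.5 with a 95% counting interval of 6.55 to 1557, and an adjusted p of 0.0128. Without TNF replicate 4, COL11A1 no longer passed the threshold for TNF (log2 fold change −4.31, adjusted p = 0.0513). When only the 8 libraries compared were fitted, the gene did not pass the filter on low counts for either cytokine. After TGF-β1 the libraries held 5.46, 16.0, 4.54 and 10.3 CPM, which overlapped the unstimulated ones. Libraries with 0 counts of COL11A1 also occurred after IL-17A, IL-22, IFNα and IFNγ, beside replicates with counts. In IL-17A, replicates 2 and 4 had 0 counts and replicate 1 had 27.

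COL5A1, the partner chain of COL5A2, was detected in an on-and-off manner that cut across the groups. It had 28 to 157 counts (18.3 to 76.9 CPM) in 10 libraries of 7 groups and at most 5 counts in the other 34. Unstimulated libraries held 76.9, 33.5, 54.9 and 0.683 CPM, and IL-6 libraries 0.571, 18.3, 3.16 and 33.8 CPM, so that replicates of 1 group fell on both sides. After TNF the libraries had 3 counts in all against 282 in unstimulated cells, a ratio of 86.2 with a 95% counting interval of 29.2 to 421. This interval pools the libraries and leaves out the spread between them, and 1 unstimulated library held only 1 of the 282 counts. The edgeR test, which uses that spread, gave an adjusted p of 0.0218. The groups overlapped through 1 unstimulated library. For TNF, COL5A1 missed the threshold without TNF replicate 1, 2, 3 or 4 (log2 fold change −6.28 to −5.80, adjusted p from 0.0577 to 0.0611). IL-13 and IL-17A libraries had 4 counts each in all, with adjusted p of 0.0562 and 0.0891.

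**Figure D4:**
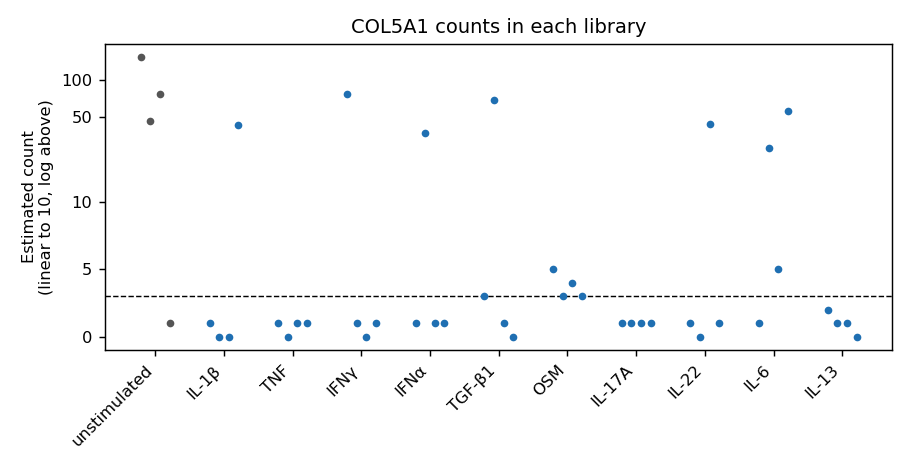
Estimated counts of COL5A1 in each of 44 libraries (points) by group, on an axis that is linear to 10 and logarithmic above; the dashed line marks 3 counts. High libraries, from 28 to 157 counts, occur in 7 groups beside replicates with at most 5.

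The other 2 fibrillar members tested, COL24A1 and COL27A1, were called for no cytokine. COL24A1 averaged 15.2 CPM after IL-17A against 4.11 CPM in unstimulated cells (adjusted p = 0.319), and COL27A1 averaged 14.1 CPM after IFNα against 5.91 CPM (adjusted p = 0.262). COL2A1 and COL11A2 had 0 counts throughout, and COL5A3 had at most 3 in any library.

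COL4A1 and COL4A2 encode the α1 and α2 chains that build the ubiquitous form of type IV collagen in basement membranes. They lie head to head on chromosome 13, in GENCODE at chr13:110148963-110307157 (minus strand) and chr13:110305812-110513209 (plus strand), where the ends of the annotated genes overlap. The interval printed above lies between the RefSeq starts, of which that of COL4A2 is downstream of its GENCODE start. Unstimulated libraries held 145, 224, 258 and 202 CPM of COL4A1 and 49.5, 32.8, 32.4 and 37.6 CPM of COL4A2. The genes were called for different cytokines, COL4A1 lower for 3 and COL4A2 higher for 1, and no cytokine was called for both.

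IL-1β lowered COL4A1 to 114, 141, 109 and 86.3 CPM, below every unstimulated library. TNF libraries held 120.0, 146, 111 and 111 CPM and OSM libraries 94.4, 108, 116 and 176 CPM, and in both groups 1 library exceeded the lowest unstimulated one. COL4A1 fell after IL-1β (log2 fold change −0.88 ± 0.20, adjusted p = 0.0022), after TNF (log2 fold change −0.76 ± 0.20, adjusted p = 0.00727) and after OSM (log2 fold change −0.75 ± 0.20, adjusted p = 0.0209). The COL4A1 call for OSM was lost without unstimulated replicate 2 or 3 or OSM replicate 1, 2 or 3 (log2 fold change −0.71 to −0.60, adjusted p from 0.0702 to 0.141). With only the 8 libraries compared in the fit the OSM call was also lost (adjusted p = 0.0625).

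The uncalled groups of COL4A1 had adjusted p of 0.314 or more. The interferons gave 259, 279, 235 and 239 CPM (IFNα) and 249, 345, 166 and 172 CPM (IFNγ), and in both groups 1 or more libraries exceeded the unstimulated range. The libraries held 204, 155, 176 and 247 CPM after TGF-β1, 159, 182, 130.4 and 155 CPM after IL-13 and 168, 129, 139 and 172 CPM after IL-17A. They held 192, 216, 182 and 164 CPM after IL-22 and 205, 209.9, 190.5 and 159 CPM after IL-6, and all overlapped the unstimulated libraries.

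COL4A2 rose with IFNγ, to 92.6, 49.0, 73.7 and 95.4 CPM, where 1 library lay within the unstimulated range. COL4A2 rose after IFNγ (log2 fold change 1.02 ± 0.32, adjusted p = 0.0268). Without unstimulated replicate 2, 3 or 4 or IFNγ replicate 1 or 4, COL4A2 no longer passed the threshold for IFNγ (log2 fold change 0.93 to 1.03, adjusted p from 0.0579 to 0.0922). The test for any difference among the 11 groups did not call COL4A2 (adjusted p = 0.0651). The exons of COL4A2 overlap those of the antisense genes COL4A2-AS1 and COL4A2-AS2, and since use of strand is not stated, reads of these genes cannot be told apart. Elsewhere the adjusted p was 0.401 or more. The libraries held 48.3, 104, 53.5 and 16.1 CPM after TGF-β1, a group that spread on both sides of the unstimulated one, and 58.6, 42.2, 57.8 and 31.1 CPM after TNF.

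The remaining COL4A2 groups stayed close to the unstimulated level. They were 34.3, 43.1, 29.2 and 27.2 CPM (IL-1β), 40.0, 46.4, 37.3 and 47.7 CPM (IL-6) and 26.6, 42.5, 53.1 and 36.4 CPM (IL-13). The rest were 25.5, 48.4, 41.7 and 43.6 CPM (IL-17A), 29.6, 42.2, 67.9 and 33.3 CPM (IL-22), 46.8, 50.04, 49.3 and 42.3 CPM (IFNα) and 28.6, 42.1, 32.0 and 52.8 CPM (OSM). The ratio of COL4A1 to COL4A2 counts, 2.94 to 7.96 in unstimulated libraries, overlapped that range for all 10 cytokines. The other type IV members, COL4A3 to COL4A6, had 0 to 7 counts per library.

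The 3 chains of type VI collagen, which assembles into beaded filaments close to the cell surface, were called for different cytokines. Whether their responses differed was tested here only as the ratios of counts given below. COL6A1 and COL6A2 lie near each other on chromosome 21 (chr21:45981770-46005050 and chr21:46098112-46132848, both plus strand), and COL6A3 lies on chromosome 2 (chr2:237324003-237414328, minus strand). Unstimulated libraries held 64.6, 47.4, 40.1 and 32.8 CPM of COL6A1, 33.3, 14.6, 35.2 and 17.8 CPM of COL6A2 and 496, 465, 411 and 378 CPM of COL6A3. IL-13 was the cytokine for which both chromosome 21 genes were called.

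After IL-13, COL6A1 stood at 138, 145, 123 and 144 CPM, above every library of every other group. COL6A2 stood at 74.3, 54.0, 73.3 and 55.1 CPM, above every unstimulated library. COL6A1 rose (log2 fold change 1.56 ± 0.28, adjusted p = 0.000171) and COL6A2 (log2 fold change 1.34 ± 0.36, adjusted p = 0.0209). The COL6A1 call held without any single library. For IL-13, COL6A2 missed the threshold without unstimulated replicate 2 or 4 or IL-13 replicate 1 or 3 (log2 fold change 1.16 to 1.30, adjusted p from 0.0551 to 0.0981). Neither gene was called for another cytokine, with adjusted p of 0.597 or more for COL6A1 and 0.363 or more for COL6A2.

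COL6A3 was called for other cytokines. IL-1β libraries held 181, 237, 270.0 and 180.3 CPM, all below the lowest unstimulated library. COL6A3 fell after IL-1β (log2 fold change −1.01 ± 0.14, adjusted p = 9.23e-07), a call that held without any single library. IL-17A libraries held 326, 262, 256 and 315 CPM and TNF libraries 339, 264, 333 and 334 CPM, also without overlap. COL6A3 fell after IL-17A (log2 fold change −0.59 ± 0.14, adjusted p = 0.0164) and after TNF (log2 fold change −0.46 ± 0.14, adjusted p = 0.0224).

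Both of the smaller calls for COL6A3 were sensitive to single libraries and to the filter on low counts. The COL6A3 call for IL-17A was lost without unstimulated replicate 1 or 2 or IL-17A replicate 2 or 3 (log2 fold change −0.56 to −0.52, adjusted p from 0.0897 to 0.0982). Without unstimulated replicate 1 or 2 or TNF replicate 2 or 3, COL6A3 no longer passed the threshold for TNF (log2 fold change −0.47 to −0.36, adjusted p from 0.0504 to 0.127). With no filter on low counts the adjusted p of COL6A3 was 0.122 for IL-17A and 0.193 for TNF, and with only the 8 libraries compared in the fit it was 0.0871 and 0.129. After IL-13 COL6A3 libraries held 639, 554, 549 and 627 CPM, above every unstimulated library, with a log2 fold change of 0.44 and an adjusted p of 0.0652. The ratio of COL6A3 to COL6A1 counts was 7.67 to 11.5 in unstimulated libraries and 3.82 to 4.63 after IL-13, without overlap, and overlapped for the other 9 cytokines (for IL-13 exact permutation p = 0.0286, 0.190 after adjustment over the 60 ratio tests).

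COL7A1 (chr3:48564073-48595329, minus strand, 119 exons) encodes the chain of the anchoring fibril, and rose with 2 cytokines. Unstimulated libraries held 13.2, 8.02, 7.74 and 8.20 CPM, from 11 to 27 counts each. IL-1β libraries held 16.7, 22.5, 41.3 and 38.3 CPM and TNF libraries 21.9, 25.8, 42.0 and 16.6 CPM. Every library of both cytokines exceeded every unstimulated one. COL7A1 rose after IL-1β (log2 fold change 1.65 ± 0.43, adjusted p = 0.00946) and after TNF (log2 fold change 1.49 ± 0.43, adjusted p = 0.017). For IL-1β, COL7A1 missed the threshold without IL-1β replicate 3 (log2 fold change 1.45, adjusted p = 0.0528). The COL7A1 call for TNF was lost without unstimulated replicate 2 or 4 or TNF replicate 3 (log2 fold change 1.19 to 1.44, adjusted p from 0.0503 to 0.106).

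Other groups of COL7A1 had adjusted p of 0.18 or more. TGF-β1 libraries held 21.8, 19.1, 23.6 and 12.5 CPM and IFNγ libraries 13.6, 21.6, 19.9 and 16.4 CPM, the latter all above the unstimulated ones, with an adjusted p of 0.196. IL-22 libraries held 23.6, 17.3, 21.8 and 8.96 CPM and IFNα libraries 7.16, 13.2, 17.5 and 18.1 CPM. IL-13 gave the widest group, 7.97, 3.09, 31.7 and 11.5 CPM, with the lowest and 1 of the higher libraries of the series. The libraries held 13.4, 7.80, 13.6 and 9.19 CPM after IL-17A, 15.4, 13.7, 10.1 and 8.45 CPM after IL-6 and 7.92, 13.6, 8.01 and 8.25 CPM after OSM, and these overlapped the unstimulated range.

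COL8A1 (chr3:99638475-99799226, plus strand) encodes a chain of the short network-forming type VIII collagen, known from vessel walls and the cornea, and was called higher for 4 cytokines, more than any other member. Unstimulated libraries held 22.5, 38.6, 33.8 and 41.7 CPM. TNF libraries held 124, 223, 209 and 170.3 CPM, a mean of 182 ± 44.2 against 34.2 ± 8.41 CPM (SD, n = 4). COL8A1 rose after TNF (log2 fold change 2.42 ± 0.28, adjusted p = 9.59e-09). IL-1β libraries held 115, 150.5, 118 and 112 CPM and TGF-β1 libraries 92.8, 94.6, 114 and 182 CPM, again without overlap. COL8A1 rose after IL-1β (log2 fold change 1.86 ± 0.27, adjusted p = 2.43e-06) and after TGF-β1 (log2 fold change 1.84 ± 0.27, adjusted p = 9.45e-06). These 3 calls held without any single library.

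IL-17A libraries held COL8A1 at 76.5, 75.7, 59.3 and 90.7 CPM. COL8A1 rose after IL-17A (log2 fold change 1.16 ± 0.27, adjusted p = 0.016). Without unstimulated replicate 1 or IL-17A replicate 4, COL8A1 no longer passed the threshold for IL-17A (log2 fold change 0.99 to 1.06, adjusted p from 0.0618 to 0.103). OSM and IL-13 libraries also lay above every unstimulated one, at 59.1, 43.3, 54.7 and 86.6 CPM and 76.3, 51.0, 51.9 and 43.5 CPM, with adjusted p of 0.0759 and 0.152. IFNγ libraries held 39.9, 37.4, 22.5 and 37.7 CPM, a log2 fold change of 0.02. Its partner chain COL8A2 had at most 7 counts in any library.

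**Figure D5:**
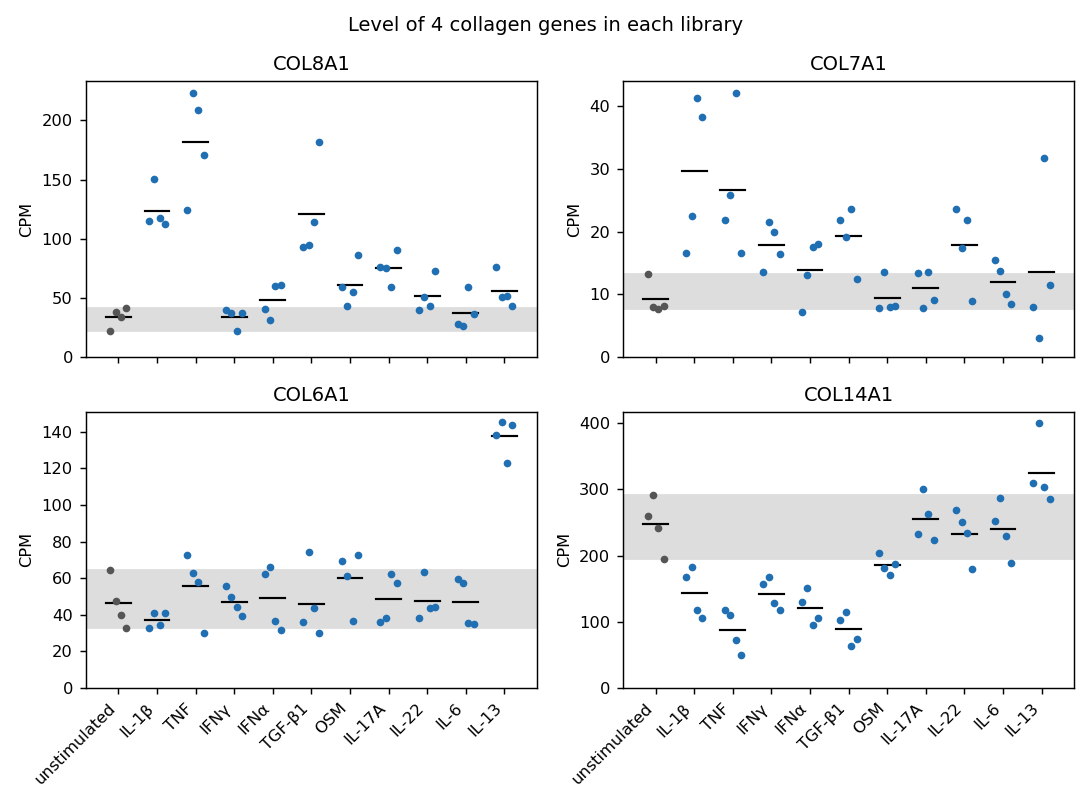
CPM of COL8A1, COL7A1, COL6A1 and COL14A1 in each library (points) by group, each on its own linear axis from 0; black lines are group means and grey bands the range of unstimulated libraries. TNF libraries lie highest for COL8A1 as a group, at 124 to 223 CPM, and only the IL-13 libraries stand above the band for COL6A1 as a group.

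Among the collagens that associate with fibrils (the FACIT class), COL14A1, which binds the surface of type I fibrils, was lower after 5 cytokines. Unstimulated libraries held 260.0, 292, 242 and 195 CPM. TNF libraries held 117, 110.2, 72.8 and 49.8 CPM and TGF-β1 libraries 102, 115, 63.5 and 74.1 CPM. In both groups every library was well below the lowest unstimulated one. COL14A1 fell after TNF (log2 fold change −1.51 ± 0.21, adjusted p = 1.24e-06) and after TGF-β1 (log2 fold change −1.48 ± 0.22, adjusted p = 5.91e-06).

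Both interferons and IL-1β also lowered COL14A1, and COL14A1 was not called between TNF and IL-1β (log2 fold change −0.72, adjusted p = 0.0896). IFNα libraries held 129, 151, 94.5 and 106 CPM, IFNγ libraries 157, 168, 129 and 117 CPM and IL-1β libraries 167, 184, 118 and 105 CPM, all below the unstimulated ones. COL14A1 fell after IFNα (log2 fold change −1.04 ± 0.21, adjusted p = 0.000322), after IFNγ (log2 fold change −0.79 ± 0.21, adjusted p = 0.00825) and after IL-1β (log2 fold change −0.79 ± 0.21, adjusted p = 0.00989). For IFNγ, COL14A1 missed the threshold without IFNγ replicate 4 (log2 fold change −0.69, adjusted p = 0.0557). The COL14A1 call for IL-1β was lost without unstimulated replicate 2 or IL-1β replicate 3 or 4 (log2 fold change −0.70 to −0.66, adjusted p from 0.0581 to 0.0772). The other 5 cytokines had adjusted p of 0.332 or more, and IL-13 gave the highest mean, 325 ± 51.2 CPM.

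COL12A1, also of the FACIT class, had group means of 42.8 CPM (IFNα) to 99.0 CPM (IL-13) against 70.4 CPM in unstimulated cells. It was called in no single comparison with unstimulated cells, although the test for any difference among groups called it (adjusted p = 0.00301). All IFNα libraries (38.6 to 49.3 CPM) and TNF libraries (42.8 to 55.1 CPM) lay below the unstimulated ones (60.5 to 80.2 CPM). With only the 8 libraries compared in the fit, COL12A1 was called for IFNα. COL16A1, COL13A1 (a transmembrane collagen) and COL18A1 (a multiplexin of basement membranes, and the source of endostatin) were called in neither. The exons of COL16A1 and COL18A1 overlap genes on the opposite strand, PEF1-AS1 and SLC19A1, and their values are uncertain for that reason.

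IL-13 and TGF-β1, both known as drivers of matrix deposition in fibrosis, differed in most of the abundant collagens when set directly against each other in the same fit. Of 20 members 7 were higher after IL-13 and 1 was higher after TGF-β1, against 12.4% of all genes called (6.39% and 6.05% in these directions). Past the fold threshold 2 were left, against 4.82% of all genes. COL14A1 was higher after IL-13 (log2 fold change 1.88 ± 0.22, adjusted p = 1.09e-08), COL6A1 (log2 fold change 1.59 ± 0.28, adjusted p = 5.06e-05), COL1A1 (log2 fold change 1.18 ± 0.36, adjusted p = 0.0223) and COL3A1 (log2 fold change 1.09 ± 0.19, adjusted p = 3.97e-05). COL5A2, COL1A2 and COL6A3 followed at 0.82, 0.69 and 0.43. COL8A1 went the other way (log2 fold change −1.12 ± 0.27, adjusted p = 0.00267). The groups did not overlap for any of these 8 genes, which were picked by their calls in the same libraries. The share of all genes without overlap was not counted, so this adds no support to the calls.

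Without IL-13 replicate 1 or 2 or TGF-β1 replicate 2 or 3, COL1A1 no longer passed the threshold for IL-13 against TGF-β1 (log2 fold change 1.01 to 1.15, adjusted p from 0.0554 to 0.0883). For IL-13 against TGF-β1, COL1A2 missed the threshold without IL-13 replicate 1 or 2 or TGF-β1 replicate 3 (log2 fold change 0.54 to 0.63, adjusted p from 0.0566 to 0.108). The COL6A3 call for IL-13 against TGF-β1 was lost without IL-13 replicate 1, 2 or 4 or TGF-β1 replicate 1, 3 or 4 (log2 fold change 0.38 to 0.46, adjusted p from 0.0525 to 0.117). With no filter or only the 8 libraries compared the adjusted p of COL6A3 was 0.267 and 0.116. The calls for COL14A1, COL3A1, COL5A2, COL6A1 and COL8A1 held without any single library.

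TNF set directly against TGF-β1 lowered 4 members and raised 0 (6.22% of all genes called, 3.03% lower and 3.2% higher). COL1A1 was lower after TNF (log2 fold change −1.21 ± 0.36, adjusted p = 0.0307), and COL4A1 and COL6A3 were lower by log2 fold changes of −0.68 and −0.47 with adjusted p of 0.0282 and 0.0307. COL11A1, with 1 count in all after TNF and 41 after TGF-β1, had an adjusted p of 0.00972. Without TGF-β1 replicate 1 or 4 or TNF replicate 3 or 4, COL1A1 no longer passed the threshold for TNF against TGF-β1 (log2 fold change −1.20 to −0.999, adjusted p from 0.052 to 0.139). For TNF against TGF-β1, COL4A1 missed the threshold without TGF-β1 replicate 1 or 4 or TNF replicate 1, 3 or 4 (log2 fold change −0.66 to −0.56, adjusted p from 0.071 to 0.118). The COL6A3 call for TNF against TGF-β1 was lost without TGF-β1 replicate 1 or 2 or TNF replicate 1, 2 or 3 (log2 fold change −0.49 to −0.38, adjusted p from 0.0523 to 0.153). With only the 8 libraries compared the adjusted p was 0.0693 for COL4A1 and 0.179 for COL6A3, and with no filter 0.253 for COL6A3. COL8A1, which rose after both, was not called between them.

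TNF and IL-1β differed in 1 member, COL6A3, which was higher after TNF by a log2 fold change of 0.55 ± 0.14 (adjusted p = 0.0364, 1.15% of all genes called, 0.452% higher and 0.694% lower). The groups overlapped in 1 library. Without IL-1β replicate 1, 2 or 4 or TNF replicate 1, 3 or 4, COL6A3 no longer passed the threshold for TNF against IL-1β (log2 fold change 0.48 to 0.60, adjusted p from 0.0653 to 0.154). With no filter or only the 8 libraries compared its adjusted p was 0.229 and 0.101. IFNα and IFNγ also differed in 1 member (9.39% of all genes called, 4.93% higher after IFNα and 4.46% lower). This was COL5A2, higher after IFNα by a log2 fold change of 1.06 ± 0.20 (adjusted p = 0.000239). The groups did not overlap, and this call held in every fit with 1 library left out. Past the fold threshold 0 members were left for TNF against IL-1β (0.368% of all genes), 0 for IFNα against IFNγ (2.74%) and 1 for TNF against TGF-β1 (2.73%).

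Genes that process, degrade or bind collagen were counted beside the collagens. Of 32 genes of collagen biosynthesis 25 were tested, and no more than 3 were called for any cytokine. The share called was 12% for TNF, against 11.5% of all genes, 8% for IL-1β (7.38%), TGF-β1 (5.69%) and IL-13 (3.93%) and 4% for IFNγ (10.6%) and OSM (3.96%). TNF raised 2 and lowered 1, TGF-β1 raised 2, IL-1β lowered 2, IL-13 raised 1 and lowered 1, and IFNγ and OSM raised 1 each. LOX, the lysyl oxidase that starts cross-linking, fell after TNF (log2 fold change −1.46), from 307 ± 64.1 to 112 ± 40.4 CPM (SD, n = 4). P3H2, a prolyl 3-hydroxylase, rose after TNF by 1.57, from 19.0 ± 6.49 to 56.6 ± 4.87 CPM. P4HA3, a prolyl 4-hydroxylase subunit, had 3 counts in all after IL-13 against 53 in unstimulated cells, a ratio of 15.9 with a 95% counting interval of 5.15 to 79.4.

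Of 11 genes of collagen degradation 9 were tested. TNF and TGF-β1 raised 4 each, IL-1β raised 3, IFNα raised 2 and lowered 1, IL-13 lowered 3 and OSM lowered 1. These were 44.4% of the list for TNF (11.5% of all genes) and TGF-β1 (5.69%), 33.3% for IL-1β (7.38%), IFNα (9.85%) and IL-13 (3.93%) and 11.1% for OSM (3.96%). MMP3, stromelysin 1, rose after TNF by 4.34 on the log2 scale and after IL-1β by 4.23, from 636 ± 163 to 12875 ± 3858 and 11976 ± 1625 CPM, and MMP10, stromelysin 2, rose after TNF by 4.42, from 165 ± 71.2 to 3536 ± 1296 CPM. FAP stands both in this list and among the fibroblast markers. Of 7 collagen receptors 5 were tested. IFNγ raised 1 and lowered 3, IL-13 and IFNα lowered 2 each, TNF and TGF-β1 raised 1 and lowered 1, IL-1β raised 1 and IL-17A lowered 1. With 5 genes in the list, 1 call is 20%, against 10.6% of all genes called for IFNγ, 3.93% for IL-13, 9.85% for IFNα, 11.5% for TNF, 5.69% for TGF-β1, 7.38% for IL-1β and 1.52% for IL-17A. ITGA2, the α2 integrin chain that binds type I collagen, rose after TNF (log2 fold change 1.65) and IFNγ (1.60) and fell after IL-13 (log2 fold change −1.61), from 74.5 ± 30.8 to 233 ± 46.2, 225 ± 76.2 and 24.5 ± 8.32 CPM. IL-6 and IL-22 changed 0 genes of the 3 lists by edgeR's test, as IL-17A did for biosynthesis and degradation.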

How the data were processed

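Ccd-18Co cultures were profiled by bulk RNA-seq in 44 libraries, 4 for each of 11 groups named in the sample labels. Per the study's methods and the submitters' processing notes, the authors checked reads with FastQC (0.11.9) and MultiQC (1.14) and quantified them with kallisto (0.48.0, default settings), with hg38 as the named build. The deposited values are estimated counts per gene symbol, not scaled for depth, and 5.73% were not whole (tolerance 1e-06). The transcript release, the step from transcripts to symbols and the use of strand are not given in the sources used here.

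Counts were rounded and filtered with filterByExpr (9513 genes kept). Normalisation was by TMM (trimmed mean of M values), and all libraries were fitted in 1 quasi-likelihood model in edgeR (4.0.16, R 4.3.3, 1 coefficient per group, common biological coefficient of variation 0.331). CPM use the normalised library sizes. Benjamini-Hochberg adjustment ran over all genes of a comparison, and calls needed an adjusted p under 0.05. Errors beside log2 fold changes are standard errors. The 4 direct contrasts used the same fit. Ratios of counts were compared by a two-sided exact permutation test on log2 ratios. Counting intervals are exact 95% intervals on counts pooled over the libraries of a group. They cover counting error only and not the spread between libraries. Coordinates and lengths come from GENCODE release 44 (hg38), which holds all 44 members, and RefSeq promoter windows were found for 32 members. Python (3.11.15) drew the plots.

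Values in every library are given for each member and cytokine with a call against unstimulated cells (a rule set with a limit of 30 pairs, while all 36 called pairs are described) and, whatever their p, for COL1A1, COL1A2, COL3A1, COL4A1, COL4A2 and COL7A1. For the lists of related genes, the calls in each direction and the 3 largest changes among called genes are given. The members, gene lists and tests were chosen with earlier results of these data known. The ratios and the counts by replicate number were added after the values had been seen.

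On data simulated for TNF against unstimulated cells (9205 genes), the fit recovered 71 of 100 genes changed 4-fold and 24 of 100 changed 2-fold, with 3 false calls. Of 66 pairs of replicates 0 were identical, and chi-square over its degrees of freedom was 3.26 or more in each, above sampling noise. Alternatives were DESeq2's size factors, DESeq2's Wald test (1.42.0), other filters on low counts, fits of only the 8 libraries compared, the replicate number as a block, a fold threshold and each library left out.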

Additional observations from a re-analysis of the deposited data

Results flagged for a closer look

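In 20 of 220 sets of 4 replicate libraries (20 members in 11 groups), 1 library stood apart, where its gap to the nearest of the others, divided by the group's range, passed Dixon's 95% critical value. For normally distributed values chance flags about 1 in 20 such sets. That rate need not hold for members with few or uneven counts, such as COL5A1 and COL11A1. Values are CPM.

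COL5A1 gave 5 of these, each a single high library beside 3 that held at most 3 counts. These were 24.4 in IFNα replicate 2, 58.8 in IFNγ replicate 1, 27.9 in IL-1β replicate 4, 56.4 in IL-22 replicate 3 and 73.4 in TGF-β1 replicate 2. In OSM replicate 4, COL1A2 (1969 against 1361 to 1443 in the others) and COL3A1 (2175 against 1541 to 1608) both stood high.

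COL7A1 stood high in unstimulated replicate 1 (13.2 against 7.74 to 8.20), which enters each comparison with unstimulated cells, and in OSM replicate 2 (13.6). COL6A3 stood low in TNF replicate 2 (264 against 333 to 339) and high in TGF-β1 replicate 2 (513). COL8A1 stood high in IL-1β replicate 2 (150.5) and low in IFNγ replicate 3 (22.5). COL6A2 stood low in TNF replicate 2 (17.2), COL1A1 low in IL-17A replicate 3 (8333) and COL3A1 high in TGF-β1 replicate 1 (1641.5). Among uncalled members, COL12A1 stood high in IL-22 replicate 1 (90.4), COL16A1 high in IFNγ replicate 4 (12.1) and COL27A1 low in TGF-β1 replicate 2 (2.13). The count behind the COL11A1 value of TNF replicate 3 (0.750) was 1.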

How the results depend on the processing

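Of the 50 calls on collagen genes in the 14 comparisons, 27 were kept under each of the 6 other fits in which the gene was tested and with each library left out, 23 were lost in at least 1 of these, and 0 changed sign. The cause of these changes was not tested unless the alternative itself uses fewer genes or libraries. Counts of members called moved by over 1.5 times as follows. A fold threshold (absolute log2 fold change above 1.5) left 3 for IL-1β, 1 for IL-13, 0 for IL-17A, 0 for IFNα, 0 for IFNγ, 1 for TGF-β1, 5 for TNF and 0 for OSM, and in the direct comparisons 2 for IL-13 against TGF-β1, 0 for TNF against IL-1β, 0 for IFNα against IFNγ and 1 for TNF against TGF-β1. DESeq2's Wald test called 5 for IL-13 and 3 for OSM. With no filter on low counts 4 were called for IL-13 and 4 for OSM. With only the 8 libraries compared, 1 was called for IL-17A, 0 for OSM, 0 for TNF against IL-1β and 1 for TNF against TGF-β1. The largest shift of the median log2 fold change over all genes under another scaling was 0.042.

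With 1 library left out, members called ranged from 8 to 11 (TNF), 5 to 9 (IL-1β), 3 to 6 (IFNγ), 3 to 4 (TGF-β1), 2 to 3 (IFNα), 1 to 2 (IL-13), 0 to 2 (IL-17A), 0 to 2 (OSM) and 0 to 0 (IL-6 and IL-22). In the direct comparisons they ranged from 5 to 9 (IL-13 against TGF-β1), 1 to 4 (TNF against TGF-β1), 1 to 3 (IFNα against IFNγ) and 0 to 1 (TNF against IL-1β).

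The labels give the groups the same replicate numbers, but over all genes tested the numbers did not meet the criterion for pairs. Correlations of the deviations of same-numbered libraries from group means ranged from −0.0865 to 0.281, and 0 of 10 cytokines had every pair over 0.1. With the replicate number as a block, 2 members were called for OSM (COL3A1 added) and 2 for TNF against IL-1β (COL14A1 added). The block also added COL1A2 for IL-1β, COL1A1 for IFNγ and COL3A1 for TNF against TGF-β1, and removed no call on a member. Over all genes, the block gave 223 calls for IL-17A against 145 without it and 638 for TGF-β1 against 541. It gave 12 for IL-22 against 0, while IL-6 stayed at 1. Counts per unstimulated library were 11 to 27 for COL7A1 and 1 to 16 for COL11A1, which limits the precision of their values.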

Other observations

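The level of some members varied with the replicate number inside groups. For COL14A1, replicates 1 and 2 both exceeded replicates 3 and 4 in 9 of 11 groups, for COL1A2 in 8 and for COL4A1 in 7, with 0, 0 and 1 groups the other way round. Over the 20 tested members this held in 66 of 220 sets of 4 libraries, against 23 the other way round. These sets reuse the same 44 libraries and are not independent of each other. The same count was not made over all genes tested, so it cannot be read as particular to collagen genes. By member, 12 had more groups with replicates 1 and 2 above and 3, COL6A2, COL7A1 and COL8A1, more with them below. For COL8A1 the counts were 0 above and 3 below. The labels name no batch, and this split was noticed after the values were seen and was not tested. In the fit with the replicate number as a block, every call on COL14A1, COL1A2 and COL4A1 was kept.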
